A study of Drosophila melanogaster with 4 samples.

Results

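GFP-tagged Hr78 was mapped by ChIP-seq (chromatin immunoprecipitation followed by sequencing) in Drosophila melanogaster embryos, and the peaks described here are those on chromosome 4 and on the X chromosome. They were taken by chromosome name from the authors' single peak list, and no score or width entered the choice. Of 1524 listed peaks, 47 lay on 4 and 168 on X, together 215. The 880 peaks on the 4 large autosome arms 2L, 2R, 3L and 3R serve as the comparison. The series holds 2 libraries of ChIP DNA, pulled down with a polyclonal rabbit antibody to GFP, and 2 of input DNA. Both groups come from embryos 8 to 16 h old whose strain has the genomic coding region of Hr78 as a transgene in the background PBac{y[+]-attP-3B}VK00037, crosslinked in 1.8% formaldehyde for 15 min. The embryo collection protocol names y; bw cn sp flies, while the strain label is Hr78-GFP. The sex of the embryos, and whether replicate libraries stem from separate embryo collections, are not given in the labels.

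Hr78 belongs to the nuclear receptors, the family of DNA-binding proteins that includes the receptors for steroid hormones, and is an orphan, with no established ligand. It is known for its part in the larval response to ecdysone, the insect moulting steroid, and for the growth of the tracheal system. X and 4 are the chromosomes of the fly with regulation that acts along the whole chromosome. On the X of males, the MSL complex (male-specific lethal proteins with the roX RNAs) acetylates histone H4 and raises transcription of the single copy. Chromosome 4, the small dot chromosome, is packed largely as heterochromatin with HP1a, yet its genes are active, and the RNA-binding protein POF coats it.

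A peak here is a region from the authors' list with a start, an end and a score, on release 5 of the genome. The score is the authors' value and its scale is not named. The list is common to all libraries, so a peak has no replicate error, the depth is unknown, and all intervals (95%) cover counting error only. Peaks are not replicates of each other. Peaks often had close neighbours and were each counted once, which makes the p-values below too small. Nor do these p-values measure how density varies between stretches of an arm, which the windows below describe. No peak was assigned to a gene and no sequence is shown, since no release 5 sequence or annotation was used here.

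The design asks where ChIP signal exceeds input, and the first comparison is how many such places each chromosome has for its length. Chromosome 4 carried 36.6 peaks per Mb (26.9 to 48.7) between its first and its last peak, X carried 7.85 per Mb (6.71 to 9.13), and the large autosome arms carried 9.14 per Mb (8.54 to 9.76). Chromosome 4 was 4.01 times as dense as the autosome arms (interval 2.92 to 5.38; two-sided exact binomial test, p adjusted over 3 comparisons = 2.3e-14) and 4.66 times as dense as X (3.30 to 6.48; adjusted p = 3.6e-15, same exact test). On X the density was 0.86 times that of the autosome arms (0.72 to 1.01), which did not pass the threshold of 0.05 (exact binomial test, adjusted p = 0.072). That ratio passed when lengths were counted from position 1, at 0.84 (adjusted p = 0.039 by the exact test, with 0.005 to 0.45 under the others tried).

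The autosome arms differ among themselves, so each was also set beside the members. The ratio of 4 ran from 3.29 against 2R to 4.45 against 3R, and each of these 4 intervals lay above 1, the lowest bound being 2.35. The ratio of X ran from 0.71 against 2R (0.58 to 0.86) to 0.95 against 3R (0.78 to 1.17), and the intervals against 2L, 3L and 3R included 1. Of these 4 intervals for X, only that against 2R, the autosome arm with the most peaks per Mb, lay below 1.

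Peaks on 4 covered 2.07% of its span, against 0.357% of the span of X and 0.407% of that of the autosome arms. In bases, that is 26554 bp on 4, 76342 bp on X and 391905 bp on the autosome arms.

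Density varies along every arm, so 4 was also compared with equally long stretches. X and the autosome arms were divided into whole, non-overlapping windows of 1283527 bp, the span of 4. The 16 windows of X held 2 to 18 peaks (median 11), and the 73 autosome windows held 1 to 38 peaks (median 11). None of these 89 windows, laid from the first peak of each arm, reached the 47 peaks of chromosome 4. Sequence left over at the end of an arm was in no window, and shifted windows were not counted. The autosome window with 38 peaks was the last whole window of 2L, and 27 of its peaks lay in 1 stretch of 122.7 kb. Peaks of 2L beyond that window were thus in no window. The autosome window with the next highest count held 24. X and the autosome arms had the same median by this count.

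**Figure D1:**
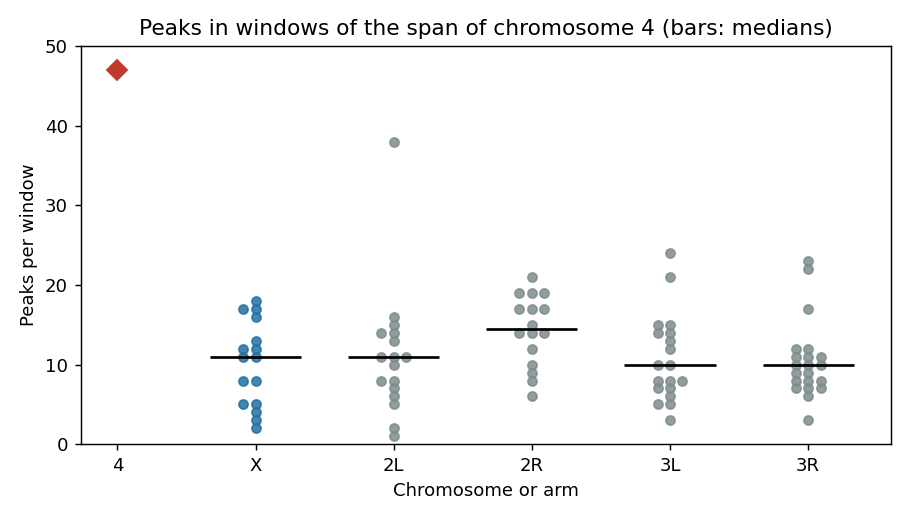
Number of peaks (y axis) in each window of 1283527 bp on X and the large autosome arms, with chromosome 4 as a whole at the left; bars are medians. Chromosome 4, with 47 peaks, lies above all windows of this fixed grid, of which the highest is 38 on 2L. The 16 windows of X lie between 2 and 18, and sequence left over at the ends of arms is not shown.

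The second comparison is how strong the peaks are. The median score was 35.4 on 4 (interval of the median 23.4 to 66.2), 17.9 on X (15.3 to 22.5) and 18.0 on the autosome arms (16.9 to 19.6). The 4 autosome arms had medians from 16.3 on 3L to 21.9 on 2L, so X lay within their range and 4 above it. Stretches as long as 4 reached higher medians, however. Among windows of its span with at least 10 peaks, 2 of 9 on X, at 45.3 and 49.2, and 2 of 44 on the autosome arms, at 35.9 and 41.8, had a median above that of 4. With 1 peak kept per group of peaks at most 5 kb apart, the one with the highest score, the medians were 53.9 on 4, 20.8 on X and 19.5 on the autosome arms. The interquartile range ran from 15.5 to 78.4 on 4, from 11.9 to 39.4 on X and from 11.9 to 35.5 on the autosome arms. Weak peaks were present on 4, where 7 of 47 peaks or 14.9% (6.20 to 28.3%) scored below the autosome lower quartile of 11.9. The share was 22.0% on X (16.0 to 29.1%) and 24.5% on the autosome arms. The interval of 4 holds both of these values, so a smaller share on 4 was not shown. The highest score was 114.8 on 4, 214.1 on X and 255.3 on the autosome arms. These medians were not tested, since the peaks of a list are not replicates.

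A peak was called high-scoring when its score was at or above 35.5, the upper quartile of the autosome arms. Of the 1095 peaks on all 6 arms, 26.5% met this. On 4 it was 23 of 47 peaks or 48.9% (exact binomial interval 34.1 to 63.9%), on X 47 of 168 or 28.0% (21.3 to 35.4%), and on the autosome arms 25% by definition. Single autosome arms ranged from 16.9% on 3L to 33.5% on 2L. The share on X was near the background, and the share on 4 exceeded that of each autosome arm, with a lower bound just above the 33.5% of 2L. The interval of 2L, 27.1 to 40.3%, overlapped that of 4.

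Counting peaks above rising scores showed how the excess on 4 depended on strength. Relative to the autosome arms, 4 was 4.06 times as dense in peaks with a score of at least 10 (2.89 to 5.57), 5.77 times at 20 (3.87 to 8.32) and 8.12 times at 40 (4.92 to 12.8). At 60 the ratio was 12.0 (6.84 to 19.8), from 18 peaks on 4 and 113 on the autosome arms. At 80 it was 13.0 (6.43 to 24.3) and at 100 it was 11.3 (3.90 to 26.7), from 12 and 6 peaks on 4. The ratio thus grew up to a score of 60 and was of like size above it, where the intervals are wide. Counting groups of peaks with at most 5 kb between them once, by their highest score, gave 10.6 (5.74 to 18.3) at 60.

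Over the same scores X did not depart from the autosome arms beyond its intervals. Its ratio was 0.84 at 10 (0.70 to 1.01), 0.87 at 20 (0.67 to 1.11) and 0.97 at 40 (0.68 to 1.37). It was 0.80 at 60 (0.47 to 1.29) from 20 peaks, 0.78 at 80 (0.39 to 1.46) from 12 peaks and 0.34 at 100 (0.067 to 1.06) from 3 peaks. Chromosome 4 and X held nearly equal numbers of peaks of at least 60, 18 and 20, although the span of 4 is 1.28 Mb and that of X 21.4 Mb, and the ratio of their densities was 15.0 (7.48 to 29.9).

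**Figure D2:**
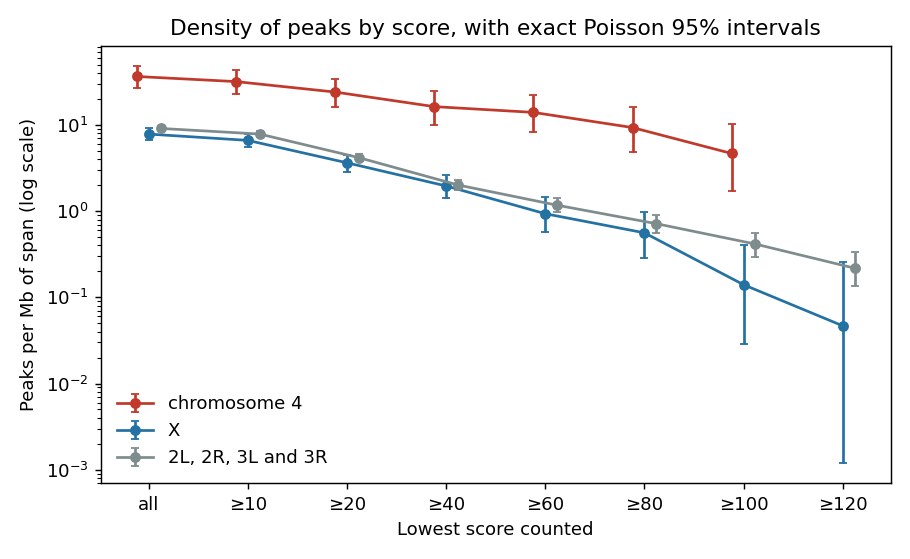
Peaks per Mb of span (y axis, log scale) with a score at or above the value on the x axis, for chromosome 4, X and the large autosome arms; vertical lines are exact Poisson 95% intervals, and a count of 0 is not drawn. The distance between chromosome 4 and the autosome arms widens from 4.01-fold for all peaks to 12.0-fold at 60, while X stays close to the autosome arms up to 80.

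The very highest scores were elsewhere. No peak on 4 reached 120, 1 did on X, and 21 did on the autosome arms, which is 2.39% of their 880 peaks. By the approximate rule of 3 divided by the count of peaks, 0 of 47 allows a share of up to 6.38%. A lack of such peaks on 4 was thus not detectable with this number. The 50 highest scores of the whole list included 1 peak on 4 and 2 on X. The 200 highest included 18 on 4, or 38.3% of its peaks, and 23 on X, or 13.7%. On the autosome arms the share among these 200 ran from 5.80% on 3L to 15.7% on 3R, so X lay inside that range.

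The strongest peaks of 4 were close to each other in score. The highest was chr4:1202172-1202942 with a score of 114.8, rank 47 of the list. It was followed by chr4:887537-888049 at 112.5 and chr4:1047629-1048391 at 111.8. These scores differ by little, and each peak is far from the others on the map. The next on 4 were chr4:199865-201018 at 105.0, chr4:591298-592407 at 104.3 and chr4:1081366-1082094 at 103.6. Ranks 7 to 9 of the chromosome were chr4:680835-681683 at 95.5, chr4:64264-64903 at 94.1 and chr4:87726-88328 at 88.4. Ranks 10 to 12 were chr4:683480-684250 at 80.8 and the neighbours chr4:335104-335679 and chr4:334360-334829, both at 80.1. These 12 peaks were spread from the first peak of the chromosome to the last of the 5 bins described below. Over the whole chromosome, scores were unevenly filled, with 16 peaks below 20, 10 from 20 to under 40, 3 from 40 to under 60 and 18 at 60 or more.

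On X a single peak stood apart. The peak at chrX:5930888-5931992 was 1105 bp wide and scored 214.1, rank 14 of the list. The second, chrX:15880702-15881220, scored 116.3 and chrX:15784935-15786279 scored 108.0. The peak at 108.0 was also the widest of X, at 1345 bp. Then came chrX:15689866-15690573 at 94.8, chrX:18677520-18677962 at 92.7, chrX:4318992-4319486 at 90.5 and chrX:15693034-15693665 at 89.1. The peaks chrX:18682101-18682670 and chrX:1936267-1936727 both scored 88.4. Ranks 10 to 15 were chrX:16110772-16111852 at 85.8, chrX:6746584-6747024 at 85.6, chrX:16278831-16279437 at 84.9, chrX:6622342-6623210 at 78.1, chrX:21501187-21502015 at 68.2 and chrX:15784008-15784718 at 64.3. Below its single highest peak, the top score of X was therefore about that of 4, but among 168 peaks against 47. A score of at least 100 was reached by 3 peaks of X and 6 of 4.

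**Figure D3:**
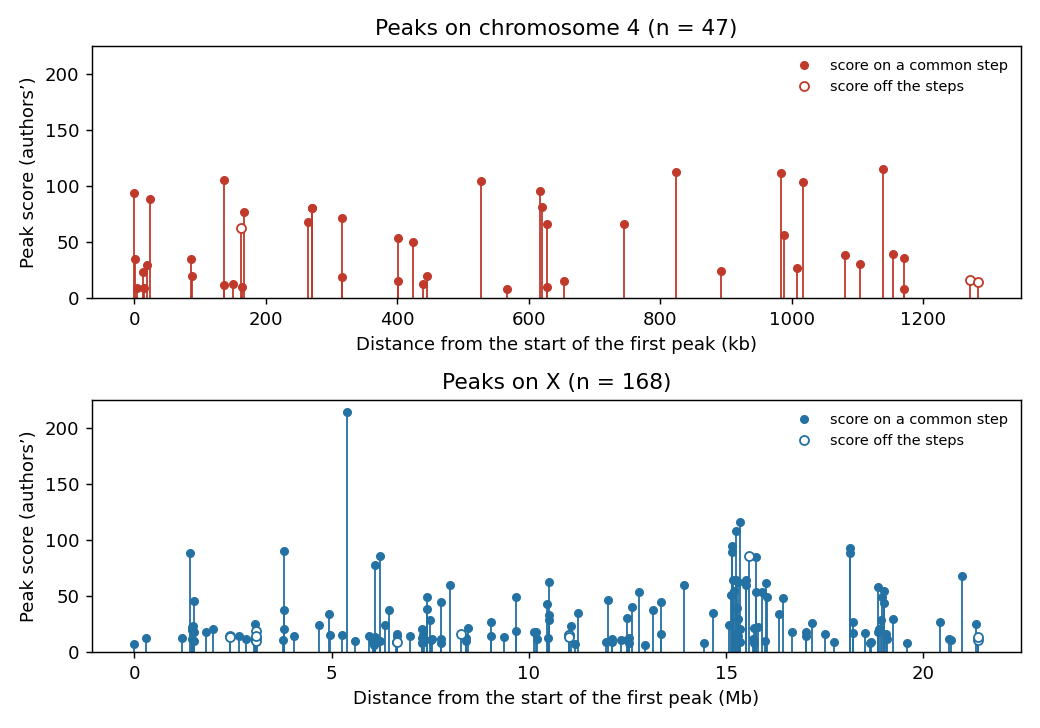
Score of each peak (y axis, the authors' score) against its distance from the start of the first peak of the chromosome (x axis, kb for chromosome 4 and Mb for X); open circles are scores off the common steps. Tall peaks are spread along chromosome 4, up to 114.8, while on X many of them stand together near 15 Mb and 1 peak reaches 214.1.

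The lower ends of both chromosomes were alike. The weakest peak of 4, chr4:631077-631314, scored 8.44, and that of X, chrX:6617519-6617719, scored 6.49, which is also the lowest score on the autosome arms. The narrowest peaks were 201 bp wide on both, as on the autosome arms, and 3 peaks on 4 and 4 on X had that width.

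Peaks on 4 had a larger median width, and width rose with score on all chromosomes. The median width was 536 bp on 4 (471 to 603), 402 bp on X (358 to 430) and 393 bp on the autosome arms (379 to 409), where single arms ranged from 384 to 434 bp. Peaks were then compared within classes of score, set by the quartiles of the autosome arms. In the lowest class the medians were 214 bp on 4 (7 peaks), 268 bp on X and 254.5 bp on the autosome arms. In the class above they were 374.5 bp on 4, 327 bp on X and 337.5 bp on the autosome arms. In the next class they were 471 bp on 4, 429 bp on X and 443.5 bp on the autosome arms. In these 3 classes the interval of 4 included the autosome median. In the highest class, the 23 peaks of 4 had a median of 676 bp (573 to 835), the 47 of X 562 bp (495 to 648) and the 220 of the autosome arms 569.5 bp (540 to 599). The scores within that class are themselves higher on 4, so width at equal score was not separated there. Widths on X were near those of the autosome arms in all 4 classes. The widest peak of 4 was chr4:808230-809603, at 1374 bp with a score of 66.2.

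**Figure D4:**
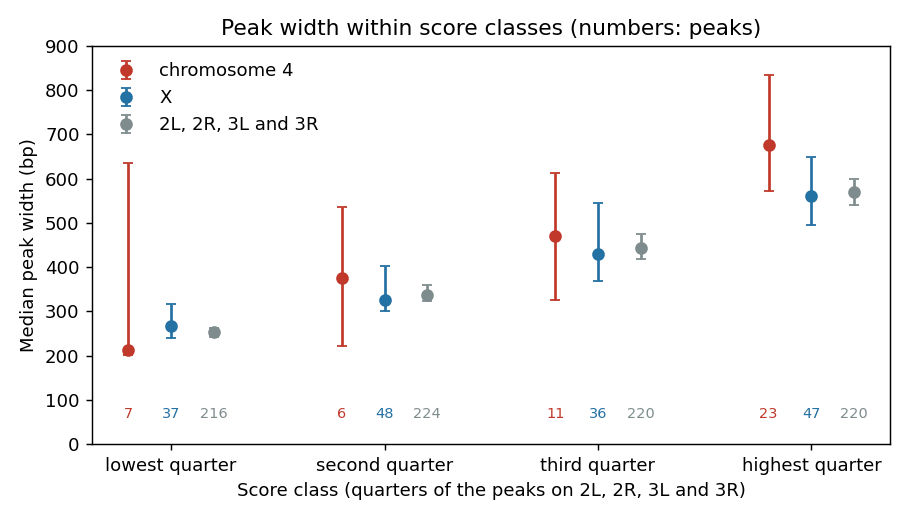
Median width of peaks in bp (y axis) in 4 classes of score (x axis) for chromosome 4, X and the large autosome arms; vertical lines are 95% intervals of the median from order statistics and the numbers are peaks. Width rises with score on each. In the highest class the median is 676 bp on chromosome 4 and 569.5 bp on the autosome arms, with intervals that overlap. Scores within that class are higher on 4, so width at equal score is not separated there.

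Within 4, peaks were most numerous at the low end of its map, the side of the centromere, and fewest in bin 4 of 5 equal bins of 256.7 kb. From low to high positions the bins held 15, 10, 8, 6 and 8 peaks. High-scoring peaks were more even, at 5, 6, 5, 4 and 3. The median scores were 29.4, 51.8, 66.2, 79.9 and 32.9, so bin 4, with the fewest peaks, had the highest median. The exact Poisson intervals of the counts in bins 1 and 4, 8.40 to 24.7 and 2.20 to 13.1, overlap. The first peak was at chr4:64264-64903 and the last at chr4:1347454-1347790. The densest 100 kb, between 64264 and 152892, held 9 peaks with scores from 9.03 to 94.1. No stretch without a peak exceeded 99.4 kb, the distance between 1235049 and 1334432, and the next were 97.3 kb from 231019 to 328363 and 90.4 kb from 717783 to 808230. As a share of the span, the longest empty stretch was 7.74% on 4, against 4.27% on X and 2.27 to 5.73% on the autosome arms. In kb the empty stretches of 4 were thus short, but not for its size.

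On X the peaks were most numerous, and their median score was highest, in 1 bin, which does not hold the highest peak. The 10 equal bins of 2.14 Mb held 13, 16, 15, 25, 13, 17, 7, 34, 20 and 8 peaks from low to high positions. Bin 8, from 15507908 to 17647456, thus held 20.2% of the peaks, or 15.9 per Mb, which is under the 36.6 per Mb of chromosome 4. It also held 19 of the 47 high-scoring peaks and 7 of the 15 highest. The median score was 49.2 in bin 8 (21.2 to 61.8) and 15.9 in the other 9 bins (14.3 to 18.7), where 28 of 134 peaks, or 20.9%, were high-scoring. Bin 8 was picked for its values, so its difference from the rest of X is a description.

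The densest 500 kb of X lay inside that bin, between 15597787 and 16043465. Of its 18 peaks, 12 were high-scoring and the scores ran from 9.35 to 116.3. The strong peaks came in several places and not as 1 block. The peaks at chrX:15689866-15690573 and chrX:15693034-15693665 scored 94.8 and 89.1, and 2 neighbours further on, chrX:15784008-15784718 and chrX:15784935-15786279, scored 64.3 and 108.0. Further on were chrX:15827647-15828428 at 62.4 and the highest of the window, chrX:15880702-15881220 at 116.3, and at its end chrX:16041569-16042178 at 64.3 and chrX:16043023-16043465 at 59.9. Counted in groups of at most 5 kb, the 18 peaks made 12 places. Without this window X had 7.16 peaks per Mb, a ratio of 0.78 to the autosome arms (0.65 to 0.93; adjusted p = 0.005 by the exact test, with 0.039 to 0.45 under the others tried), and its ratio at scores of at least 60 was 0.49 (0.24 to 0.89). Leaving out the densest window lowers a density by construction. With the autosome arms instead without the dense stretch of 2L, the ratio of X for all peaks was 0.89 (0.75 to 1.05; adjusted p = 0.16 by the exact test).

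The longest empty stretches of X lay on both sides of this region but did not border it. The longest ran 913.7 kb from 830049 to 1743725, the next 831.1 kb from 20123161 to 20954311 followed by 718.4 kb from 11767062 to 12485458. The longest on the autosome arms were 478.7 kb on 2R, 905.3 kb on 3L, 966.5 kb on 3R and 1313.0 kb on 2L, so those of X were within their range. The first peak of X was at chrX:531066-531278 with a score of 7.30, and the last at chrX:21926236-21926554 with 13.8.

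**Figure D5:**
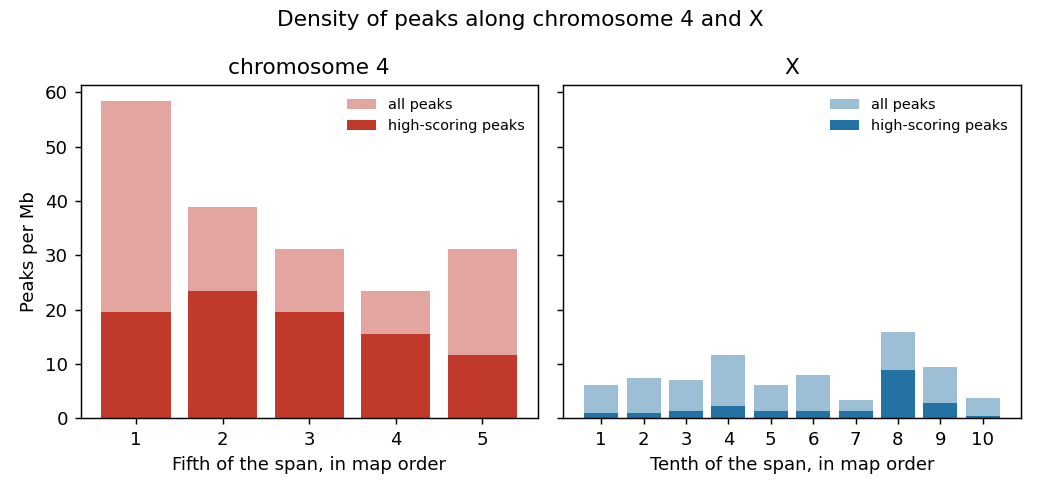
Peaks per Mb (y axis) in 5 equal bins of the span of chromosome 4 and 10 equal bins of that of X, in map order (x axis); light bars are all peaks and dark bars the high-scoring peaks with a score of at least 35.5. On X, bin 8 holds 34 of 168 peaks and 19 of 47 high-scoring ones, while high-scoring peaks occur in each bin of chromosome 4.

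Neighbouring peaks were common on both chromosomes. Another peak lay within 5 kb, measured between midpoints, for 31.1% of the peaks of all 6 arms. It did so for 28 of 47 peaks on 4, or 59.6% (44.3 to 73.6%), for 60 of 168 on X, or 35.7% (28.5 to 43.5%), and for 252 of 880 on the autosome arms, or 28.6% (25.7 to 31.7%). Single autosome arms ranged from 21.4% on 3R to 35.3% on 2R, so X lay just above their range with an interval that overlaps it. A higher share goes with a higher density, and the part of the density in the share on 4 was not tested. Windows of the span of 4 with at least 10 peaks had shares between 18.2 and 61.5% on X and between 0 and 70.6% on the autosome arms, a range that holds the value of 4.

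Within such groups, the scores of neighbours were often unequal. When peaks separated by no more than 5 kb, edge to edge, were joined, the 47 peaks of 4 made 31 places, namely 19 single peaks, 9 pairs and 3 larger groups. The 168 of X made 134, with 106 single peaks, 23 pairs and 5 larger groups. The highest score of a group was a median of 2.85 times the second on 4 (12 groups), 1.88 times on X (28 groups) and 1.57 times on the autosome arms (108 groups), where single arms ranged from 1.43 to 2.28. It was at least 2 times the second in 7 of the 12 groups of 4, in 13 of the 28 of X and in 38 of the 108 on the autosome arms. Exceptions on 4 include the neighbours at 80.1 each and those at 95.5 and 80.8 named above. Grouped peaks had a median score of 44.6 on 4, 18.3 on X and 17.1 on the autosome arms, and single peaks had 30.4 on 4, 17.9 on X and 18.7 on the autosome arms. Single peaks, too, had a higher median on 4. None of these differences was tested.

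The larger groups are given in full. On 4, the peaks from 64264 to 68017 scored 94.1, 34.9 and 9.35 in map order, and those from 76832 to 88328 scored 23.4, 9.03, 29.4 and 88.4. The remaining group, from 226489 to 231019, scored 62.7, 9.66 and 76.7, with the weak peak between strong ones. All 3 of these groups lie in the first of the 5 bins. On X, the group from 6617519 to 6628035 scored 6.49, 78.1, 13.3 and 9.97, the group from 15877461 to 15886360 scored 20.8, 116.3 and 9.35, and the group from 4317900 to 4321072 scored 20.8, 90.5 and 38.0. In each of these, 1 peak scored at least 2.38 times the next. The other 2 groups of X had no such peak, with scores of 18.8, 9.85 and 14.1 from 3621332 to 3623636 and of 15.3, 15.7 and 13.6 from 11539761 to 11541306.

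Some neighbours were almost adjacent. On 4, 3 pairs were under 100 bp apart, with gaps of 50, 51 and 58 bp, and in each the scores were far apart, at 105.0 and 11.6, 66.2 and 9.97, and 35.4 and 8.44. X had 4 such pairs, with gaps of 63 to 99 bp, and in these both scores were below 20. The autosome arms had from 1 pair on 3R to 6 on 2R. With such pairs merged, 4 was 3.81 times as dense as the autosome arms (2.75 to 5.16).

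The scores themselves share a structure. On the 4 autosome arms, 621 of 880 scores (70.6%) were, within 0.015, equal to a −log10 upper-tail probability of a Poisson variable whose mean, 48.945, was fitted on those arms alone. On average, the zones around these steps cover 6.14% of the score range up to the upper decile of the autosome arms. They cover more of it at low scores, where the steps lie closer together. The mean was the one that put the most autosome scores on steps, so the fit favours the 70.6%. Over all 6 arms the share was 74.9%. With the mean left as fitted, 44 of 47 scores on 4, or 93.6% (82.5 to 98.7%), and 155 of 168 on X, or 92.3% (87.1 to 95.8%), fell on the steps, against 66.0 to 73.6% on single autosome arms. Both chromosomes thus stood above each autosome arm in this respect, with intervals that do not reach the highest of them. This difference was not tested.

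The few scores off the steps on X lay at places from 2965206 to 21926554, mostly as neighbours of each other. Of 13, 10 lay in 4 groups in which no score was on a step, from 2965206 to 2966525, 3621332 to 3623636, 11539761 to 11541306 and 21925964 to 21926554. These include both of the X groups of 3 without a dominant peak and the last 2 peaks of the chromosome, and their scores lay between 9.85 and 18.8. The off-step peak with the highest score on X was chrX:16110772-16111852, at 85.8. On 4 the 3 scores off the steps belonged to chr4:226489-227033 at 62.7 and to the last 2 peaks, chr4:1334432-1334654 at 15.8 and chr4:1347454-1347790 at 14.0. On both chromosomes, then, the last 2 peaks of the map were weak and off the steps.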

How the data were processed

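Per the file headers, the authors deposited 1 list of MACS peaks on FlyBase release 5, with 1 score per peak for the whole series. Build BDGP5 and the tools BWA, MACS2 and CASAVA (1.7.0.2 and 1.7.0.3) appear in the submitters' processing notes. Not given in the sources used here are the score scale, the calling threshold, the treatment of multiply mapped reads and how the 2 libraries of each kind were combined. Depth is unknown. A gene table of release 6 was not used.

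From these peaks, densities were computed over spans, from the start of an arm's first peak to the end of its last, with exact Poisson intervals, and ratios with exact conditional intervals and two-sided exact binomial tests, adjusted by the Benjamini-Hochberg method over 3 comparisons. Medians carry order-statistic intervals and shares exact (Clopper-Pearson) ones, apart from the approximate limit for 0 of 47 peaks. The interval and test of density ratios were tried on simulated independent counts, and the step fit on simulated scores. The other intervals were not tried in this way. Peaks named are the 12 highest of 4 and 15 highest of X (ties to the wider), the extremes of each, groups of 3 or more, the ends of empty stretches and dense windows; close pairs and off-step peaks were chosen after their values were seen. Members, lists and comparisons were chosen with earlier results of these data known. Python 3.11.15, numpy 2.4.6, scipy 1.17.1 and pandas 2.3.3 were used.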

Additional observations from a re-analysis of the deposited data

How the results depend on the processing

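Of 38 recomputed values, 29 kept their direction and call or stayed within their interval, and no density ratio reversed. Medians and shares were scored only against their own interval, so a change of side against the autosome arms was not labelled. X did change side in its median score, from 17.9 against 18.0 to 20.8 against 19.5 with 1 peak per 5 kb group. The excess on 4 passed in each alternative, with ratios to the autosome arms from 3.23 (5 kb groups counted once) to 6.32 (scores at or above the autosome median), and 3.86 to 6.97 against X. The ratio of X, 0.86, did not pass with scores at or above the autosome median (0.91), without the dense stretch of 2L (0.89), with close peaks merged (0.85) or with 5 kb groups counted once (0.84). It passed with lengths from position 1 (0.84) and, chosen after the data were seen, without its densest 500 kb window (0.78), which also brought its ratio at scores of at least 60 to 0.49, with an interval below 1. Other thresholds give other shares by construction. Scores at or above the autosome upper decile were 27.7% on 4 and 7.74% on X, against 10% on the autosome arms. X was thus below the autosome arms at the decile but above them at the upper quartile, with 28.0% against 25%. Neighbours within 2 kb were 34.0% on 4, 23.2% on X and 17.8% on the autosome arms, and within 10 kb 70.2%, 47.0% and 38.3%. Median width on X was 513 bp among scores at or above the autosome median, against 515 bp on the autosome arms. Among all peaks the order was the other way, with 402 bp on X and 393 bp on the autosome arms. No paired analysis was possible because the only list has no value per library. Leaving out a replicate was impossible too. Depth is unknown, so no peak can be called absent.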

Other observations

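XHet, a scaffold of X heterochromatin that is apart from the X sequence above, held 1 peak, at 75809 to 76358 with a score of 34.9. No density was computed from this 1 peak.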
